A study of Mus musculus with 44 samples.

Results

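Livers of Mlkl knockout mice were compared with livers of wild-type mice after 6 months on a high-fat diet deficient in choline, labelled CD-HFD. The comparison holds 9 bulk RNA-seq libraries of the 44 in the series, 3 labelled Mlkl knockout (replicates 1, 2 and 4) and 6 labelled wild type (replicates 1 to 6). Its libraries were taken by genotype and diet label alone, though the comparison was chosen with earlier results of these data known. All mice were 2 months old when feeding started, and each library was made from 500 ng of total RNA from liver tissue. The other groups used here are Mlkl knockout and wild type on CD-LFD, its low-fat counterpart (4 and 6 libraries) and on control diet (normal chow, 6 and 6 libraries), and Ripk3 knockout on CD-HFD (4 libraries). The labels call the lines Mlkl-/- and Ripk3-/- and give no allele design, background strain, sex or litter. They do not say whether animals were littermates, so the p-values measure the spread between libraries. The series asked how gene expression in a liver cancer-promoting diet differs when necroptosis is blocked.

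Necroptosis is a lytic form of cell death. The kinase RIPK3 phosphorylates MLKL, a pseudokinase that then oligomerises and ruptures the plasma membrane, releasing cell contents that stimulate inflammation. Choline is needed to make phosphatidylcholine and to export lipid from the liver as lipoprotein, so choline-deficient diets cause fatty liver, and with time inflammation, fibrosis and tumours.

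The targeted gene was lower in the knockout libraries, but not to the same degree in all 3. Mlkl (ENSMUSG00000012519) had 112, 136, 162, 132, 209 and 157 counts in wild-type replicates 1 to 6, and 72, 37 and 21 counts in the libraries labelled Mlkl knockout replicates 1, 2 and 4. After scaling to CPM (counts relative to the library's TMM-adjusted total), wild type lay between 14.3 and 17.7, and the knockout libraries were at 12.5, 4.83 and 2.8. All 3 values were below all 6 wild-type values, but the library labelled replicate 1 was nearer to wild type than to the other 2 knockout libraries. The 10 Mlkl knockout libraries on the other diets lay between 1.46 and 4.15 CPM. The log2 difference was -1.29 (SE 0.292, edgeR adjusted p = 0.294), and the two-sided exact permutation test gave p = 0.0238, the smallest that 3 against 6 libraries allow. The level in the library labelled replicate 1 goes against its label, and what it comes from was not tested. Without that library the difference was -2.07, a value given as a description only, since the library was singled out by its Mlkl level. Counts for the gene lists described are given with and without it where it changes them by more than 1.5 times. Ripk3, the upstream kinase, had 1.74 to 3.26 CPM in the knockout libraries and 2.34 to 4.44 in wild type (log2 -0.25, SE 0.495).

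No gene passed an adjusted p of 0.05 between the genotypes on CD-HFD (0% of 14862 genes tested, by edgeR's quasi-likelihood F test, p-values adjusted by Benjamini-Hochberg). The smallest adjusted p was 0.288, for Tubgcp5. At an unadjusted p under 0.05 there were 1246 genes (8.38%), of which 660 were higher in the knockout (4.44%) and 586 lower (3.94%). All 3 knockout values lay above all 6 wild-type values for 350 genes (2.35%) and below them for 360 (2.42%). Restricting the fit to the groups compared called 2 genes (Mycl and Retreg1), DESeq2 called 2 (Mlkl and Tubgcp5), and the fit without the library labelled Mlkl knockout replicate 1 called Mlkl alone, the gene by whose level that library was singled out. In the text below, higher and lower refer to genes with an unadjusted p under 0.05, none of which passed adjustment in the fit over all 44 libraries. Of the list members and rule-named genes so described, at least 19 had an unadjusted p above 0.05 without the library labelled replicate 1. In these 19 it was 0.0565 to 0.262: Cd5l, Chdh, Clec4g, Col14a1, Cps1, Dnase1l3, Fabp1, Fas, Fcgr2b, Golm1, Ifit3, Lgr5, Mat1a, Mmp12, Oit3, Ppara, Reln, Snhg11 and Vsig4. The 19 are not complete: the Kupffer cell list went from 4 higher to 1 without that library, and of those 4 only Cd5l and Vsig4 are named here. The median 95% interval reached 0.548 on the log2 scale to either side of the estimate, and for 9526 genes (64.1%) the interval lay within 2-fold in both directions. The estimate was past 2-fold for 544 genes, 185 higher and 359 lower, of which 264 had an unadjusted p under 0.05. Among 4129 genes at a mean log2 CPM of 5 or more, 3532 (85.5%) had an interval within 2-fold.

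**Figure D1:**
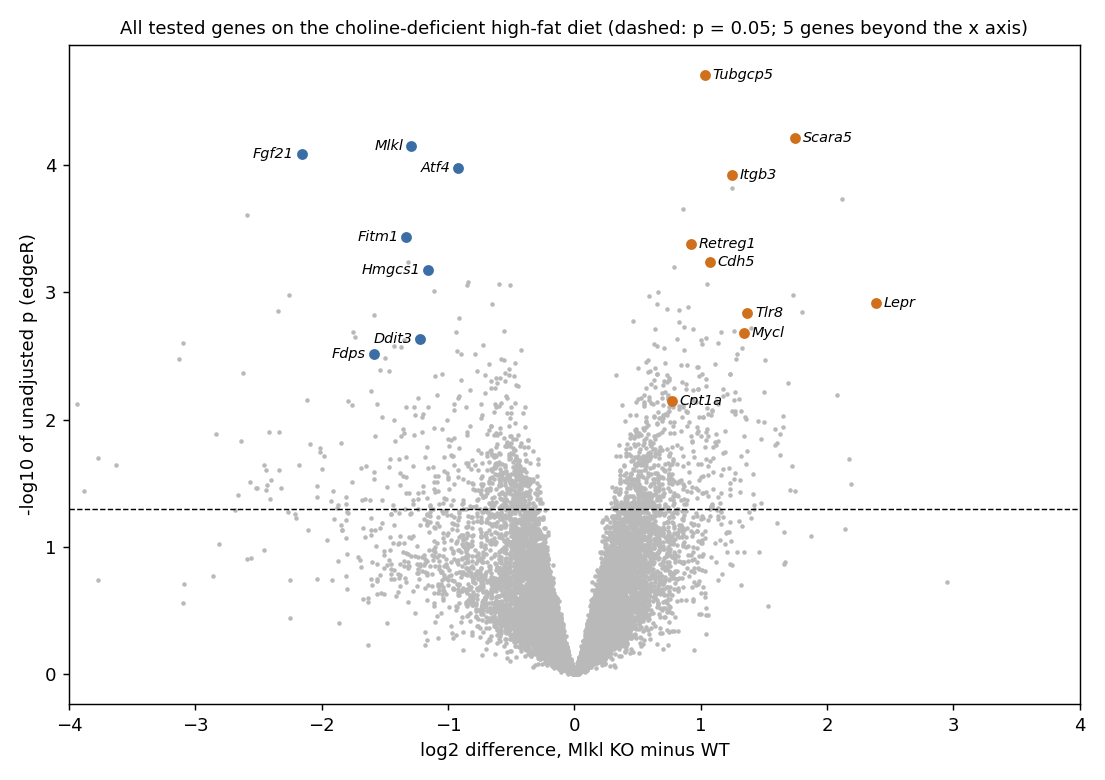
Log2 difference between Mlkl knockout and wild type on CD-HFD (x axis) against -log10 of the unadjusted p (y axis) for all tested genes, 1 point per gene, with genes described in the text coloured and named. Named genes lie at both ends, and 5 genes lie beyond the x axis.

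The 9 libraries held 4983234 to 11070338 counts, with the knockout libraries at 4983234 to 6144921 and wild type at 5602516 to 11070338. These ranges overlapped (two-sided exact permutation p = 0.0714). An index of transcript length, the median deviation of the fifth of genes with the longest transcripts minus that of the fifth with the shortest, was 0.08 to 0.55 in the knockout libraries and -0.38 to 0.32 in wild type (log2 scale, overlapping, two-sided exact permutation p = 0.119). With the index as a covariate, 280 genes were higher (1.88%) and 194 lower (1.31%) at an unadjusted p under 0.05. The counts were 484 (3.26%) and 462 (3.11%) without the library labelled Mlkl knockout replicate 1. They were 981 and 733 without replicate 2, and 241 and 170 without replicate 4. Without wild-type replicates 1, 2, 4, 5 and 6 they were 560 and 562, 796 and 725, 477 and 439, 461 and 348, and 430 and 425. List counts given below for fits with 1 library left out stand beside these. Wild-type replicate 3 stood apart in the log2 ratio of the clock genes Arntl and Dbp, at -2.12 where the other 8 libraries lay between -6.24 and -4.71, and without it 1185 genes were higher and 796 lower. How much of the difference between genotypes is tied to the index was not tested beyond this covariate.

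The higher genes named by rule were the 12 with the largest non-overlapping differences, and Retreg1 and Tubgcp5, which an alternative fit had called. Scara5, a scavenger receptor for ferritin, had 18.1, 38.6 and 36.4 CPM in the knockout and 5.52 to 13.4 in wild type (median 9.09, log2 1.75, SE 0.392, adjusted p = 0.294). Lepr, the leptin receptor, had 4.7, 5.87 and 9.2 CPM against 0.725 to 2.3 (log2 2.39, SE 0.688). The groups did not overlap for either gene, and the library labelled replicate 1 was the lowest of the 3 in both. Retreg1, a receptor for autophagy of the endoplasmic reticulum, had 94.9, 87.8 and 97.8 CPM against 42.4 to 54.4 (log2 0.92, SE 0.241), with all 3 libraries close together. Tubgcp5, a subunit of the gamma-tubulin ring complex, had 8.53, 9.0 and 6.53 CPM against 2.74 to 4.61 (log2 1.03, SE 0.213). Mycl, a MYC family transcription factor, had 12.7, 18.8 and 21.6 CPM against 5.95 to 8.51 (log2 1.34, SE 0.409). The rest of the 12 were Spidr, Syde2 and Arhgef37 (log2 1.29, 1.18 and 1.18), Tlr8, an endosomal RNA sensor (log2 1.37), Itgb3, integrin beta 3 (log2 1.25), Gfra1, a GDNF co-receptor (log2 1.25), Ccr1, a chemokine receptor (log2 1.12), Abca6, a lipid transporter (log2 1.23) and Tbc1d30, a GTPase-activating protein (log2 1.14). With the length index as a covariate Abca6 dropped to 0.4, Gfra1 to 0.5 and Tlr8 to 0.76, whereas Retreg1 stood at 0.66 and Tubgcp5 at 1.02. Syde2 and Spidr were each at 0.65 in the lowest of the 18 alternative fits.

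**Figure D2:**
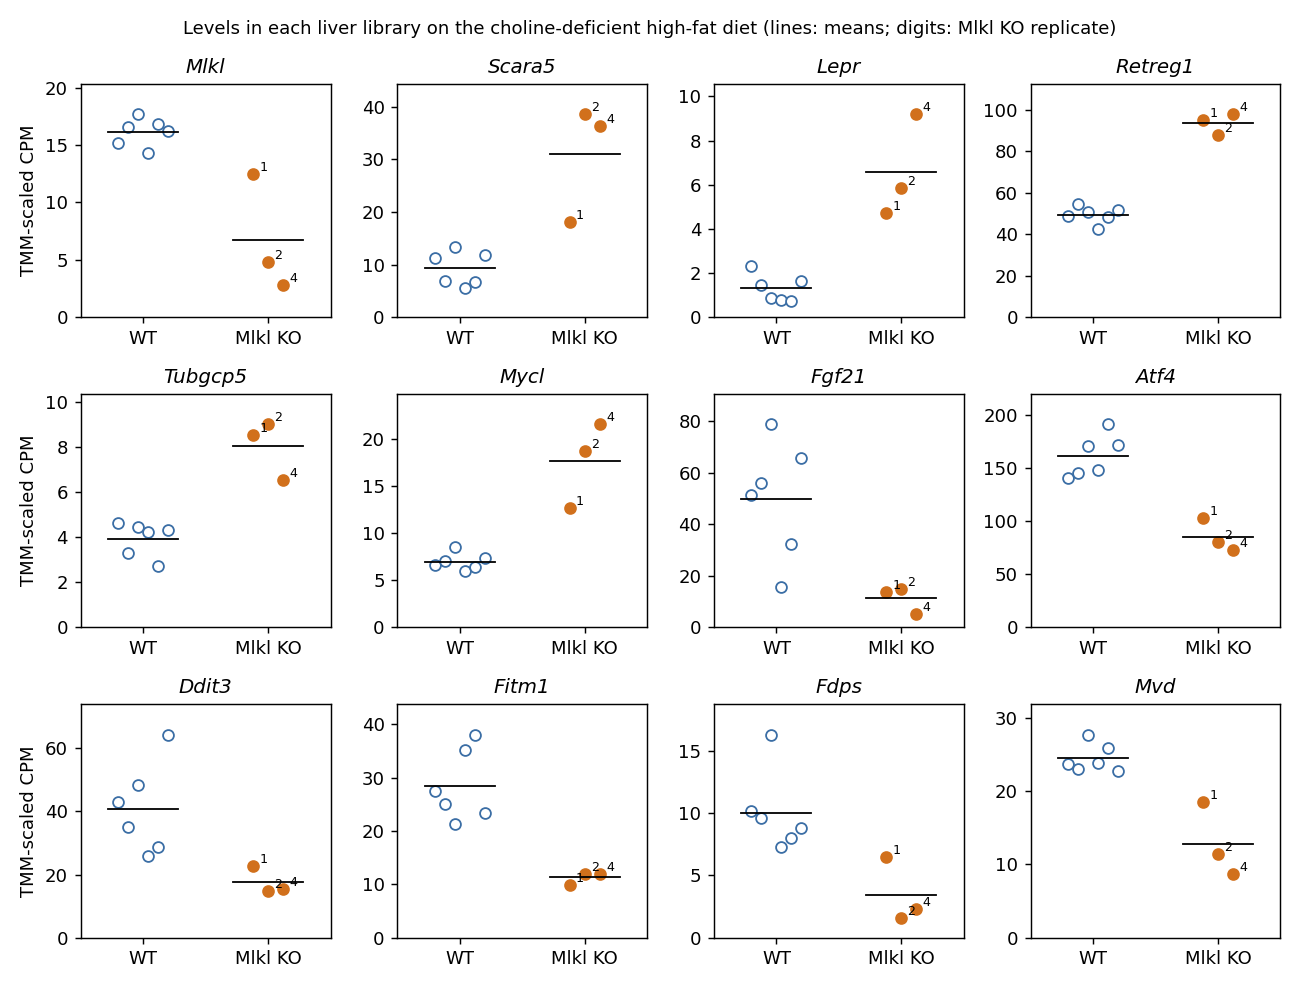
TMM-scaled CPM (y axis, starting at 0) in each of the 6 wild-type and 3 Mlkl knockout liver libraries on CD-HFD for 12 genes, open circles for wild type and filled circles for knockout with the replicate number, and lines for group means. The knockout circles lie outside the wild-type range in each of these genes. In Mlkl, Scara5, Lepr, Mycl, Atf4, Ddit3, Fdps and Mvd the library labelled replicate 1 lies nearest to wild type.

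Among the genes named by rule, which needed a mean log2 CPM of at least 1, Fgf21 was furthest below wild type. It encodes a hormone that the liver secretes under fasting, lipid load and amino acid stress. It had 13.6, 14.9 and 5.06 CPM in the knockout libraries and 15.6 to 78.7 in wild type (median 53.6), a log2 difference of -2.16 (SE 0.496, 95% interval -3.16 to -1.16, adjusted p = 0.294). The groups did not overlap, but wild-type replicate 4, at 15.6, was close to the knockout. Wild type on control diet had a mean of 1.28 CPM, below all 9 libraries on CD-HFD. Atf4, the transcription factor through which the integrated stress response acts, had 103, 79.9 and 72.6 CPM against 141 to 191 in wild type (log2 -0.92, SE 0.215). Ddit3 (CHOP), a pro-apoptotic target of that response, had 22.8, 14.7 and 15.3 CPM against 26.0 to 64.3 (log2 -1.22, SE 0.376). Chac1, a glutathione-degrading target, was lower as well (log2 -1.42, SE 0.557), though with 10.6 CPM in the library labelled replicate 1 its groups overlapped. Of the 24 genes listed for the unfolded protein and integrated stress responses, Atf4, Ddit3 and Chac1 were the 3 lower (beside 3.94% over all genes), none was higher, and the median difference was 0.03, the same as the 0.03 over all genes. Without Mlkl knockout replicate 2, 2 were higher and 2 lower, and the median was -0.12 without the library labelled replicate 1. On CD-LFD 4 were higher and 3 lower (7.95% and 7.66% over all genes), and on control diet 17 and 1 (18.2% and 20.7%). The interaction with control diet passed for 8 of the 24, each with a lower value on CD-HFD (4.12% of all genes in either direction). The chaperone Hspa5 (log2 0.12, SE 0.336) and the amino acid enzyme Asns (log2 0.30, SE 0.421) did not differ beyond their error.

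The promoter of Fgf21 is shown because it holds a match to the amino acid response element, the type of site that ATF4 and CHOP bind. It is the 250 bases before the RefSeq gene start, at chr7:45615491-45615740 (minus strand) of GRCm38.p6, an earlier build than the GRCm39 used for the counts. Capitals mark a match to TGATGNAA on either strand. 1 match was found, and of all 32841 promoters of this length 3.45% hold one. On the stress response list 1 of the 3 lower genes held a match in this window, and 2 of 19 others with a RefSeq promoter.
Fgf21: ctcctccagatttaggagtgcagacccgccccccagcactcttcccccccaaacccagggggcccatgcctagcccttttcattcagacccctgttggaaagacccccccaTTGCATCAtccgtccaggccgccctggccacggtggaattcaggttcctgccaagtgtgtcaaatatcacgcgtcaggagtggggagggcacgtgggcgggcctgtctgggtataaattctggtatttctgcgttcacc

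Other lower genes named by rule were Fitm1 (log2 -1.33, SE 0.344), which helps package fat into lipid droplets, with 9.92, 12 and 11.9 CPM against 21.3 to 38.1; Susd4, a complement regulator (log2 -1.54); Nat8f5, an acetyltransferase (log2 -1.32); Adrb3, an adrenergic receptor (log2 -1.27); Oas1c, an oligoadenylate synthetase family member (log2 -1.26); and C4a, a complement component (log2 -1.21). Mirg (log2 -1.75) and Snhg11 (log2 -1.17) are noncoding RNAs. Susd4 was raised in wild type by replicate 1, at 11.9 CPM against 3.6 to 4.13 at the lowest and the median. C4a and its paralogue C4b are near-identical, so reads could be split between them.

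Interferon-stimulated genes had the largest share of lower members of the 47 lists. Of 29 listed and tested, 11 were lower and 0 higher, 5 lay wholly below wild type (2.42% over all genes), 27 had a negative difference, and the median was -0.43, beside 3.94% lower and a median of 0.03 over all genes. Isg15, a ubiquitin-like modifier induced by interferon, had 41.5, 25.0, 47.3, 50.1, 92.7 and 62.5 CPM in wild type and 29.6, 24.7 and 8.8 in the knockout (log2 -1.35, SE 0.417). The 2 groups overlapped for Isg15, since wild-type replicate 2 was at 25.0. Igtp, an interferon-inducible GTPase of intracellular defence, had 30.5, 22.7 and 26.1 CPM against 32.9 to 71.4 (log2 -0.79, SE 0.25), with no overlap. Psmb8 (log2 -0.43) and Psmb9 (log2 -0.66), subunits of the immunoproteasome, and Gbp6 (log2 -0.84), a guanylate-binding protein, were also wholly below wild type. Irf7 (log2 -0.69), Ifit1 (log2 -1.05), Ifit3 (log2 -0.71), Iigp1 (log2 -0.46) and Zbp1 (log2 -0.74) were lower with overlapping groups. Zbp1 is a nucleic acid sensor that can itself activate RIPK3.

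The mean log2 level of the list, taken relative to the wild-type mean, was -0.37, -0.45 and -0.49 in the 3 knockout libraries and -0.29 to 0.45 in wild type, with wild-type replicates 3 and 5 the highest. Leaving out the library labelled replicate 1, 10 members were lower (3.11% over all genes). Leaving out Mlkl knockout replicate 4, 2 were, leaving out replicate 2, 7 were, and leaving out wild-type replicate 5, 4 were. Over all genes 170, 733 and 348 were lower in these fits, beside 586 in the main fit. With the length covariate 4 were lower (1.31% over all genes) with a median of -0.33. The median kept its sign in all 18 alternatives, from -0.49 to -0.32. On CD-LFD 0 of the 29 were higher and 0 lower, with a median of 0.09, beside 7.95% higher and 7.66% lower over all genes there. On control diet 3 were higher and 3 lower with a median of 0.02, beside 18.2% and 20.7%. The difference between the genotype effects was tested by interaction: 0 genes passed against CD-LFD (0%, with 1193 at an unadjusted p under 0.05, and 2 by DESeq2). Against control diet 612 did (4.12% of all genes), among them 2 of the 29 list members. These were Igtp (log2 -1.23, edgeR adjusted p = 0.0234) and Iigp1 (log2 -1.05, edgeR adjusted p = 0.0161). Isg15 had an interaction of -1.10 against control diet, with an adjusted p of 0.28.

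Promoters of the 4 lower members with an interferon-stimulated response element are shown because this type of site is bound by the transcription factors that interferon signalling activates. RefSeq promoters were found for 20 of the 29 genes. The motif, GAAA followed by any 2 bases and GAAA again, searched on both strands over the 250 upstream bases with overlapping matches counted, was held by 4 of 7 lower members, 7 of 13 others on the list, and 2.98% of all 32841 promoters. The lower members were thus not set apart from the other members by this motif. Isg15 lies at chr4:156200819-156201068 (minus strand), Igtp at chr11:58199306-58199555 (plus strand), Ifit3 at chr19:34583279-34583528 (plus strand) and Ifit1 at chr19:34640639-34640888 (plus strand), all GRCm38.p6, and capitals mark the matches, 3 overlapping ones in Isg15, 2 each in Ifit3 and Ifit1, and 1 in Igtp.
Isg15: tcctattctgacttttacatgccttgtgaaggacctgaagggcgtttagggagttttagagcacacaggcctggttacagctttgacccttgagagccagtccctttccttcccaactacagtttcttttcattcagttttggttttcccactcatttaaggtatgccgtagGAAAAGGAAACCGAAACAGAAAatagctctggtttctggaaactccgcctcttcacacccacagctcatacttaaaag
Igtp: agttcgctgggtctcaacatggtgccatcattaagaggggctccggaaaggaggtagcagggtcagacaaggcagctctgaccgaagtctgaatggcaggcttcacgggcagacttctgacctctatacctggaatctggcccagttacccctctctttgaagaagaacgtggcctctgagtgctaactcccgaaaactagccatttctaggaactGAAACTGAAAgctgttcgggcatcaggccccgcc
Ifit3: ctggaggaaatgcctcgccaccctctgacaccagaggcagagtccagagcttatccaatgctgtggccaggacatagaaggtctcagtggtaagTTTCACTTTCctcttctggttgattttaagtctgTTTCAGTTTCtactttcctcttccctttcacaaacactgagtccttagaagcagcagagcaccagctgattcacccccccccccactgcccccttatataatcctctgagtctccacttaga
Ifit1: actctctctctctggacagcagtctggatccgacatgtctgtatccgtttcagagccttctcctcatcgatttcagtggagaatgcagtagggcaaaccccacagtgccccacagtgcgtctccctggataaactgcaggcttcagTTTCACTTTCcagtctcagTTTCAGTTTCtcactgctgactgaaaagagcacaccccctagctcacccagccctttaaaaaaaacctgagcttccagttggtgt

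**Figure D3:**
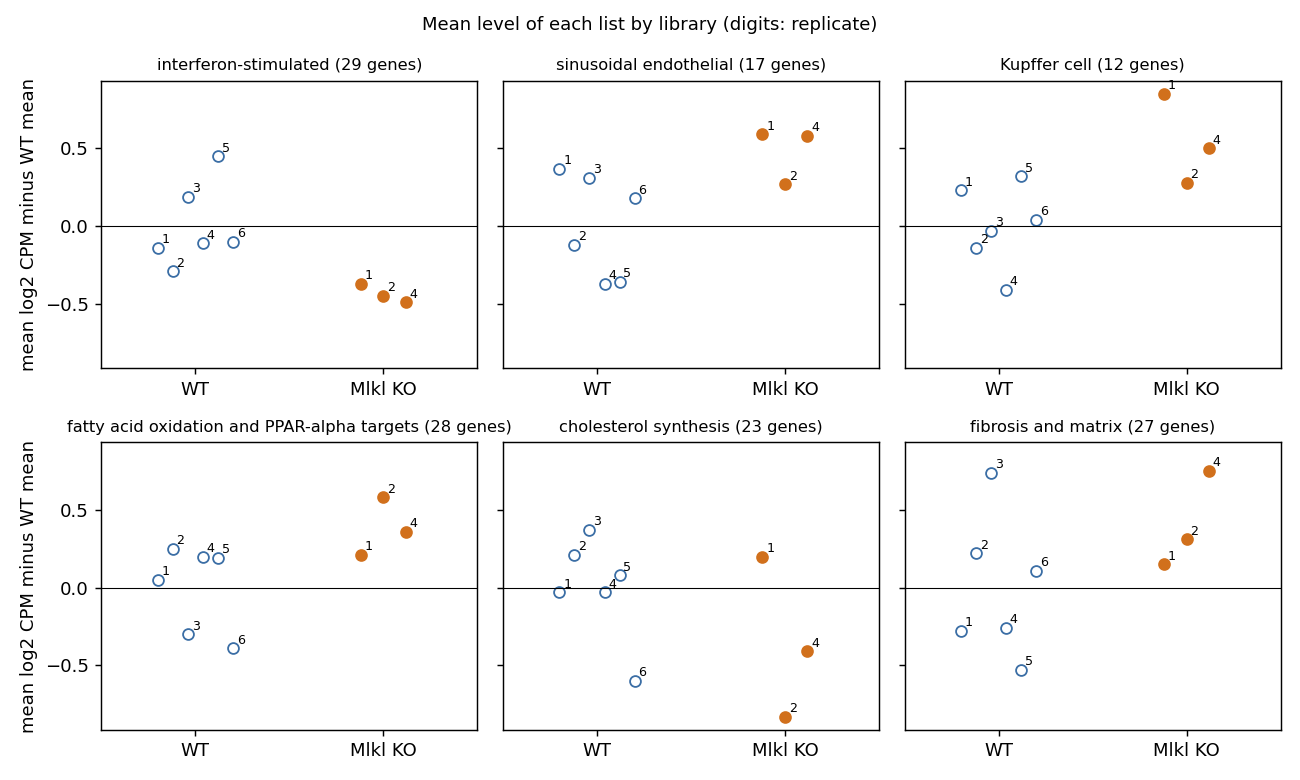
Mean log2 CPM of 6 gene lists in each library on CD-HFD, relative to the wild-type mean (y axis), open circles for wild type and filled circles for Mlkl knockout, with replicate numbers. The interferon-stimulated scores of the knockout lie below the wild-type range, and for cholesterol synthesis the library labelled replicate 1, at 0.20, lies apart from the other 2 at -0.83 and -0.41.

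Genes of liver sinusoidal endothelial cells, the fenestrated lining of the liver's capillaries, had the largest share of higher members of the 47 lists. Of 17 tested, 8 were higher and 0 lower, with a median of 0.46, beside 4.44% higher over all genes. Cdh5 (VE-cadherin) had 22.3, 9.53 and 16.5 CPM against 5.08 to 10.6 (log2 1.07, SE 0.287). Kdr, the VEGF receptor, had 22.5, 12.4 and 20.7 CPM against 7.43 to 14.1 (log2 0.87, SE 0.263). Gpr182, a chemokine scavenger, had 21.4, 13.4 and 15.7 CPM against 6.70 to 15.2 (log2 0.83, SE 0.241). In these 3 genes replicate 2 lay within the wild-type range, and the library labelled replicate 1 was the highest. Oit3 (log2 1.05), Dnase1l3 (log2 0.91), Clec4g (log2 0.65), Pecam1 (log2 0.55) and Fcgr2b (log2 0.40) were the others, and Fcgr2b alone did not overlap. The count was 5 without the library labelled replicate 1 (3.26% over all genes), and 6 with the length covariate (median 0.45, 1.88% over all genes). On CD-LFD 2 were higher and 1 lower (7.95% and 7.66% over all genes), and on control diet 2 and 4 (18.2% and 20.7%). The mean log2 level of the list, relative to the wild-type mean, overlapped between the groups at 0.27 to 0.59 in the knockout and -0.37 to 0.37 in wild type. Its summed level, to which abundant members add most, was 479 to 510 CPM and 271 to 453. In bulk liver, more cells of a type and more RNA per cell cannot be told apart.

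Of 12 Kupffer cell markers tested, 4 were higher and 0 lower, with a median of 0.65, beside 4.44% higher over all genes. Vsig4, a complement receptor of resident macrophages, had 27.2, 10.7 and 17.3 CPM against 3.89 to 11.2 (log2 1.27, SE 0.462). Cd5l, a secreted macrophage survival factor, had 129, 53.6 and 105 CPM against 21.3 to 68.8 (log2 1.06, SE 0.462). The remaining ones were Cdh5, which is also counted among endothelial genes, and Hmox1 (log2 0.62), the haem-degrading enzyme. The resident markers Timd4 and Cd163 were at or near 0, with at most 0.31 CPM in wild type for both and 0.696, 0.783 and 0.4 for Cd163 in the knockout. In Clec4f, another resident marker, the values were 62.9, 44.2 and 28.5 against 9.71 to 49.2. Of the 12, 1 was higher without the library labelled replicate 1 (3.26% over all genes) and 1 with the length covariate (1.88%). The count was 2 without Mlkl knockout replicate 4 and 2 without wild-type replicate 4. Of 18 markers of lipid-associated macrophages, the cells that gather around fat-laden hepatocytes, Mmp12 alone was higher (log2 0.55, SE 0.262, beside 4.44% over all genes) and none was lower, and none was higher without the library labelled replicate 1. Left-out fits gave 0 to 3 higher, with 3 without wild-type replicate 3 and 3 without Mlkl knockout replicate 2. Trem2, their lipid-sensing receptor, had 64.4, 75.3 and 83.3 CPM against 54.5 to 99.4 (log2 -0.06, 95% interval -0.57 to 0.46). Of 19 T and cytotoxic lymphocyte genes, 11 MHC class II genes and 5 neutrophil genes, 0 were higher and 0 lower in each list, beside 4.44% and 3.94% over all genes, shares at which lists of this size hold few such genes. Without Mlkl knockout replicate 4, 2 T and cytotoxic lymphocyte genes were lower and 1 neutrophil gene higher. Without wild-type replicate 2, 1 of the former was higher, and without replicate 3, 1 MHC class II gene.

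No collagen or matrix gene was lower in the knockout at an unadjusted p under 0.05. Of 27 tested, 5 were higher (Col5a2, Col5a1, Fbn1, Col4a2 and Col14a1, with log2 differences of 0.83, 0.57, 0.78, 0.56 and 0.63), 0 were lower, and 24 had a positive difference, with a median of 0.34, beside 4.44% higher over all genes. All 5 overlapped between the groups. Col1a1, the main collagen of scar tissue, had 176, 275 and 291 CPM against 102 to 296 (log2 0.26, 95% interval -0.45 to 0.97), where wild type on control diet had a mean of 7.72. No member was higher without Mlkl knockout replicate 4, and none with the length covariate (241 and 280 over all genes, 660 in the main fit). The count was 1 without wild-type replicate 1, 4 or 5, 3 without replicate 6, and 8 without replicate 3 (560, 477, 461, 430 and 1185 over all genes). It was 1 when scaled by library size only, 2 by DESeq2 and 8 with only the groups compared (522, 606 and 906 over all genes). On CD-LFD 0 were higher and 4 lower, beside 7.95% and 7.66% over all genes. Of 15 stellate cell and myofibroblast genes 1 was higher (Reln, log2 0.55) and 0 lower, beside 4.44% and 3.94% over all genes. Of 19 oncofetal and liver tumour markers, Golm1 alone was higher (log2 1.10, SE 0.474), beside 4.44% over all genes, and none was without the library labelled replicate 1. Afp stood at 7.66, 5.74 and 5.33 CPM against 5.15 to 7.68 (log2 -0.03, 95% interval -0.64 to 0.57). Of 28 cell cycle genes 0 were higher and 0 lower, beside 4.44% and 3.94% over all genes, with a median of 0.23. Without the library labelled replicate 1, 2 were higher (3.26% over all genes), and with the length covariate 3 were (1.88%). Without wild-type replicate 6, 4 were higher and 1 lower (430 and 425 over all genes).

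Fatty acid oxidation genes and targets of the lipid-sensing receptor PPAR-alpha had 6 members higher and 2 lower of 28, beside 4.44% and 3.94% over all genes. Their median was 0.49, 25 had a positive difference, and 7 lay wholly above wild type (2.35% over all genes). Cpt1a, which carries fatty acids into mitochondria at the rate-limiting step, had 574, 441 and 535 CPM against 224 to 402 (log2 0.77, SE 0.273). Ppara itself had 77.7, 61.7 and 76.1 CPM against 23.6 to 60.3 (log2 0.72, SE 0.31), and Angptl4, an inhibitor of lipoprotein lipase, 158, 262 and 193 against 38.0 to 148 (log2 0.77, SE 0.322). None of these 3 overlapped. Acot1 (log2 1.60, SE 0.632) and Cyp4a31 (log2 1.10) were also higher, and Fgf21 and Fabp1 (log2 -0.71) were lower. With the length covariate 3 were higher and 1 lower (median 0.30), without Mlkl knockout replicate 2, 3 and 2, without the library labelled replicate 1, 6 and 1, and with only the groups compared, 10 and 2. On CD-LFD 12 were higher and 2 lower with a median of 0.50, beside 7.95% and 7.66% over all genes. On control diet 2 were higher and 3 lower with a median of -0.02, beside 18.2% and 20.7%. Neither diet shares a library with the CD-HFD comparison.

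A pair of lipid droplet genes that act on stored fat went the same way: Pnpla2, the first triglyceride lipase, had 117, 195 and 150 CPM against 80.0 to 116 (log2 0.62, SE 0.22), and Plin5, which links droplets to mitochondria, 42, 107 and 57.2 against 24.4 to 44.3 (log2 0.94, SE 0.332). Fitm1 and Bscl2 (seipin, log2 -0.41), which act in droplet formation, were lower, so of 17 droplet genes 2 were higher and 2 lower, beside 4.44% and 3.94% over all genes. Without Mlkl knockout replicate 2, the highest library for both Pnpla2 and Plin5, none was higher. Periportal genes had 3 of 14 higher beside 4.44% over all genes, 13 of 14 with a positive difference and a median of 0.35. The count was 1 without Mlkl knockout replicate 2 and 8 without wild-type replicate 5. They were Cps1 (log2 1.14) and Ass1 (log2 0.60) of the urea cycle and Sds (log2 1.0), which breaks down serine. Of 14 pericentral genes, Lgr5 (log2 -0.82) and Cyp1a2 (log2 -0.42) were lower and 0 higher, beside 3.94% lower over all genes, and without Mlkl knockout replicate 2 none was lower. Of 25 phosphatidylcholine and methionine cycle genes Ahcy (log2 0.65), Mat1a (log2 0.50) and Chdh (log2 0.46) were higher and 0 lower, beside 4.44% higher over all genes. No gene of this list was higher without wild-type replicate 6, without Mlkl knockout replicate 4 or with the length covariate, and 1 gene was higher without wild-type replicate 3. Without the library labelled Mlkl knockout replicate 1, 1 was higher and 1 lower.

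Cholesterol synthesis genes had 6 of 23 lower and 0 higher, with 21 negative differences and a median of -0.27, beside 3.94% lower over all genes. Hmgcs1, an early enzyme of the pathway, had 182, 104 and 112 CPM against 172 to 429 (log2 -1.16, SE 0.315), overlapping at wild-type replicate 6. Fdps, which makes farnesyl diphosphate, had 6.44, 1.57 and 2.27 CPM against 7.25 to 16.3 (log2 -1.59, SE 0.506), and Mvd 18.5, 11.4 and 8.66 against 22.7 to 27.7 (log2 -0.94, SE 0.286). The groups did not overlap for Fdps and Mvd. Fdft1 (log2 -0.71), Msmo1 (log2 -0.56) and Nsdhl (log2 -0.42) overlapped. The library labelled replicate 1 was the highest knockout library for all of the genes named here. Without it 11 of 23 were lower (3.11% over all genes) and the median was -0.59. Without Mlkl knockout replicate 2, 3 were lower with a median of -0.11, and with the length covariate 10 were (1.31%). On CD-LFD 4 were lower and 1 higher (7.66% and 7.95% over all genes), and on control diet 3 and 3 (20.7% and 18.2%). The promoter of Hmgcs1, at chr13:119690101-119690350 (plus strand) of GRCm38.p6, is shown because it held the only match to the sterol regulatory element TCACNCCAC, bound by SREBP2, among the 16 list members with a RefSeq promoter. Over all promoters of this length 1.05% hold one, on either strand, and capitals mark it.
Hmgcs1: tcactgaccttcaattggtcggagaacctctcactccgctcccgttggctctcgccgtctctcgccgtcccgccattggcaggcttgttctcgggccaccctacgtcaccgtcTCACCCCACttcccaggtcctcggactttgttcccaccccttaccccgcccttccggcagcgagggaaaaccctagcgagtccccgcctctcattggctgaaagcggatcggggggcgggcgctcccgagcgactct

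Of 29 necroptosis and cell death genes, 4 were lower, the targeted gene among them, and 0 higher, beside 3.94% lower over all genes. The count was 1 without Mlkl knockout replicate 4, and 2 without replicate 2 (with 1 higher), without wild-type replicate 5 or with the length covariate. Besides Mlkl and Zbp1 the 4 were Traf2, an adaptor of TNF receptors (log2 -0.46, 22.1, 18.8 and 15.9 CPM against 23.2 to 30.2), and the death receptor Fas (log2 -0.37, 13.1, 13.6 and 11.5 CPM against 14.5 to 18.5). Ripk1 (log2 0.35, 95% interval -0.11 to 0.82) and Casp8 (log2 -0.08, 95% interval -0.43 to 0.26) overlapped between the groups. Of 50 genes next to Mlkl on chromosome 8, 25 on each side, 3 were higher (Pdpr, log2 1.48, St3gal2, log2 0.66, and Bco1, log2 0.58), 1 was lower (Nudt7, log2 -0.56), beside 4.44% and 3.94% over all genes, and no values were separated between the groups. Without the library labelled replicate 1, 2 were higher and 2 lower. On chromosome 8 as a whole, 64 of 763 genes had an unadjusted p under 0.05 (8.39%), within the range of 7.21% to 10.7% over the 18 autosomes counted. Chromosome 18 was left out of that range, and 887 tested genes had no chromosome assigned.

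The genotypes could also be compared on 2 further diets with no library in common. Of the 1246 genes on CD-HFD, 873 (70.1%) had the same sign on CD-LFD and 900 (72.2%) on control diet, beside 58.4% and 61.4% of all genes tested. In all, 117 (9.39%) had an unadjusted p under 0.05 with the same sign on all 3 diets, 74 higher and 43 lower. Of all genes tested, 4.04% passed that p on both other diets with the sign they had on CD-HFD. For 37 of these, 27 higher and 10 lower, the adjusted p was under 0.05 on both other diets. They included Scara5 (log2 1.75 on CD-HFD, 1.93 on CD-LFD and 1.81 on control diet), Lepr (2.39, 3.03 and 2.90), Retreg1 (0.92, 0.97 and 0.88) and Tbc1d30 (1.14, 1.27 and 1.06). Mlkl itself was among them (-1.29, -1.71 and -1.15), as was Atf4 (-0.92, -0.87 and -0.62). Further members with a known role were Fkbp5, a glucocorticoid-induced chaperone partner, with 93.7, 109 and 87.2 CPM against 27.2 to 60.8 (1.12, 2.46 and 1.92), Slc22a5, the carnitine transporter (1.04, 1.67 and 1.02), Il6ra, the interleukin 6 receptor (0.67, 1.48 and 0.91), Gpcpd1, a phosphodiesterase of choline metabolism (0.94, 1.63 and 0.72), Cpt1a (0.77, 1.05 and 0.67), Angptl4 (0.77, 1.56 and 1.66) and Pnpla2 (0.62, 1.01 and 0.60). Fgf21 (-2.16, -2.86 and -1.18) and Ddit3 (-1.22, -1.0 and -0.32) had their smallest differences on chow, but their interactions with control diet did not pass (Fgf21 adjusted p = 0.642 and Ddit3 adjusted p = 0.317 by edgeR). Ripk3 knockout livers on CD-HFD, compared with the same 6 wild-type libraries, stood at -2.36 for Fgf21, -1.66 for Ddit3, 2.02 for Scara5 and 1.08 for Retreg1. The Ripk3 knockout medians were 0.10 for interferon-stimulated, -0.14 for sinusoidal endothelial, 0.11 for Kupffer cell and -0.11 for matrix genes. In the Mlkl knockout these were -0.43, 0.46, 0.65 and 0.34. For fatty acid oxidation and cholesterol synthesis the Ripk3 knockout medians were 0.51 and -0.33, and those of the Mlkl knockout 0.49 and -0.27. The shared controls mean that these 2 genotype comparisons are not independent.

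**Figure D4:**
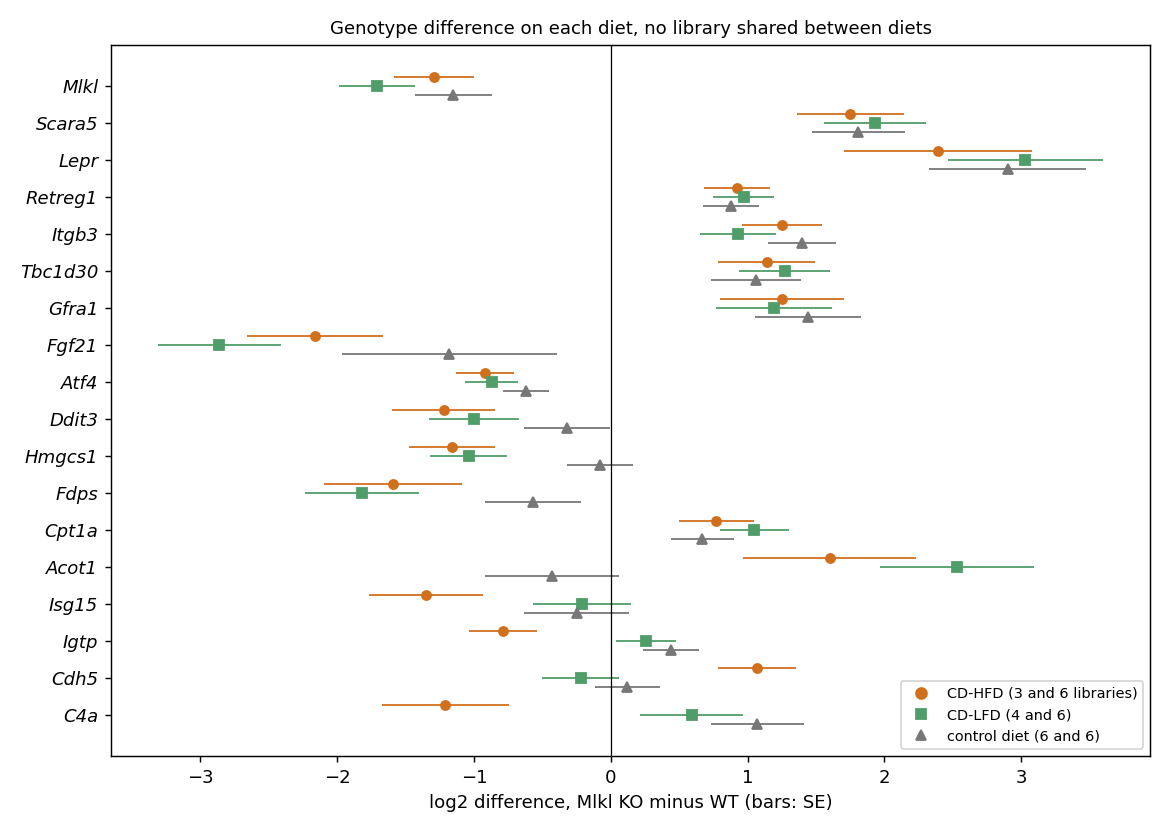
Log2 difference between Mlkl knockout and wild type (x axis, bars for 1 SE) of 18 genes on CD-HFD, CD-LFD and control diet, with no library shared between diets. Scara5, Lepr, Retreg1, Itgb3, Tbc1d30 and Gfra1 lie right of 0 on all 3 diets, and the CD-HFD values of Isg15 (-1.35), Igtp (-0.79), Cdh5 (1.07) and C4a (-1.21) lie away from those on the other diets, a difference that passed the interaction with control diet for Igtp and C4a.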

How the data were processed

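Bulk liver RNA-seq counts were analysed. The authors deposited raw counts per Ensembl gene; FastQC, STAR, HTSeq, edgeR and limma and the builds GRCm39 and mm39 are named in the submitters' processing notes, without versions, and the strand setting is not given in the sources used here. A symbol was found for 34373 of 35249 gene IDs. Counts of all 44 libraries in 9 groups were fitted with edgeR 4.0.16 in R 4.3.3 (TMM, filterByExpr with a minimum count of 10, quasi-likelihood F test, Benjamini-Hochberg over 14862 genes); DESeq2 1.42.0 was an alternative. Fits were tested on simulated data. Replicates had no shared litter or batch in the labels, and no 2 of the 9 libraries agreed within sampling noise. The 47 gene lists and the comparison were chosen with earlier results of these data known. Genes were named by rule: Mlkl and Ripk3, the 12 largest non-overlapping differences in each direction at a mean log2 CPM of at least 1, genes called in any fit, for each list its smallest p and its 3 highest levels, and the 4 largest interactions in each direction; other list members, and genes of the 3-diet comparison, were chosen after their values were seen. Intervals are 95% from the fit. Promoters and motifs come from RefSeq GRCm38.p6. Motif choices were made after seeing the gene values. Values of some single list members are not reported here.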

Additional observations from a re-analysis of the deposited data

Results flagged for a closer look

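In wild type on CD-HFD, 7 of 159 measures tested had a library far from the other 5; chance alone gives about 5% of such groups. Replicate 3 stood apart in Angptl4 (38 CPM, low), Dclk3 (1.96 CPM, low), the clock gene Dbp (40.7 CPM, low), the erythroid score (1.65, the mean log2 level relative to the wild-type mean, high) and the log2 ratio of Arntl to Dbp (-2.12, high). Other libraries did so in Susd4 (11.9 CPM in replicate 1) and Cyp1a2 (350 CPM in replicate 2).

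The genotype difference differed between CD-HFD and control diet, by the interaction in the edgeR fit, for 18 of the genes described here. Of these, 8 (Igfbp5, Nr4a1, Hnf4aos, Dclk3, Saa2, Mt2, Lcn2 and Mt1) were named because their interactions were the largest, so the number was partly fixed by that choice. It was higher on CD-HFD for Igfbp5 (log2 3.17), Nr4a1 (3.09), Hnf4aos (2.84), Dclk3 (2.57), Arhgef37 (2), Kdr (1.55), Tubgcp5 (0.95) and Fcgr2b (0.94). It was lower for Saa2 (-7.66), Mt2 (-7.39), Lcn2 (-7.16), Mt1 (-7.03), Chac1 (-3.34), C4a (-2.28), Hspa5 (-1.52), Igtp (-1.23), Iigp1 (-1.05) and Casp8 (-0.88). For Saa2, Mt2, Lcn2 and Mt1 the knockout was above wild type on control diet, by 6.95, 8.15, 7.08 and 7.69, and the differences on CD-HFD were -0.70, 0.75, -0.08 and 0.67.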

How the results depend on the processing

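The count of genes at an adjusted p under 0.05 between the genotypes on CD-HFD was 0, and 2 with only the groups compared, 2 with DESeq2 and 0 to 1 with 1 library left out, where the library labelled Mlkl knockout replicate 1 gave the 1. The 1246 genes at an unadjusted p under 0.05 became 2073 with no count filter, where more genes were tested, 1941 with only the groups compared and 474 with the length covariate, an alternative chosen after seeing the data. Leaving out 1 library gave 411 to 1981, the lowest without Mlkl knockout replicate 4 and the highest without wild-type replicate 3; without wild-type replicate 5 it was 809. The interaction with control diet called 612 genes, 228 with only the groups compared, 1041 with the length covariate, 968 with DESeq2 and 181 to 1266 with 1 library left out. The interaction with CD-LFD called 0 genes, 2 with no count filter, 2 with DESeq2 and 0 to 1 with 1 library left out. Mlkl passed the adjusted threshold with DESeq2 (-1.33) and without the library labelled replicate 1; left-out fits ran from -2.07 to -0.91. The causes of these shifts were not tested. Of 27 named genes, 26 kept their sign in all 18 alternatives; Ripk3 turned to 0.13 with the length covariate. The same-numbered libraries of the genotypes correlated at -0.111, -0.33 and -0.163. So few correlations cannot decide whether a number marks a shared litter or batch, which the labels do not say. The replicate block gave 1136 genes at an unadjusted p under 0.05 and 0 at an adjusted one. With it 1 fatty acid oxidation gene was higher (6 without it) and 2 lower, 10 matrix genes were higher (5), 3 cell cycle genes higher and 1 lower (0 and 0), 2 lipid-associated macrophage genes higher (1), 5 pericentral (2), 7 interferon-stimulated (11) and 2 necroptosis genes lower (4). Depth limits low genes: 3 counts, the floor used, are 0.602 CPM in the smallest of the 9 libraries.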
